A study of Arabidopsis thaliana with 16 samples.

Results

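The 10 cytosolic genes of Arabidopsis thaliana for the heat shock proteins HSP90, HSP70 and HSP101 were followed through seedlings in which the proteasome, the protease complex that degrades ubiquitin-tagged proteins, was inhibited or mutated. They were taken by gene identifier and are 10 of the 33602 genes listed in each file; all 10 passed the filter on low counts. HSP90-1 (AT5G52640), HSP70-4 (AT3G12580), HSP70-5 (AT1G16030) and HSP101 (AT1G74310) are here called the 4 inducible forms. HSP90-2 (AT5G56030), HSP90-3 (AT5G56010), HSP90-4 (AT5G56000), HSP70-1 (AT5G02500), HSP70-2 (AT5G02490) and HSP70-3 (AT3G09440) are called the 6 constitutive forms. The names come from what is known of heat stress in Arabidopsis and not from these data.

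The study sequenced RNA of whole seedlings in 16 libraries, to ask how plants respond to a failing proteasome. Untreated rpn10-1 (2 libraries) and untreated rpn12a-1 (2 libraries) are exon trap mutants of 2 subunits of the proteasome's regulatory particle. Untreated Col-0 seedlings, the wild type here, gave 4 libraries, and Col-0 given the proteasome inhibitor MG132 at 100 µM gave 4 libraries at 3 h and 4 at 24 h. All seedlings were grown for 5 days in liquid culture under constant light at about 22 °C, after 2 days of stratification at 4 °C. MG132 was added in fresh medium, whereas untreated seedlings were harvested at once at 5 days, so the drug, the change of medium and the added age at 24 h cannot be told apart. Each mutant is 1 line, and no label says that the libraries of a group were separate cultures; the p-values therefore cover the spread between these libraries, which may be technical.

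Total counts ran from 6646134 to 21762565 per library. The labels note a technical replicate for 8 libraries (replicates 3 and 4 of each Col-0 group, both of rpn12a-1), and these 8 form a library set that stood apart from the rest. RPN10 had 21.4 and 22.2 CPM (read counts scaled to library size, with sizes adjusted by the trimmed mean of M values) in rpn10-1, against 98.6 to 136 CPM in untreated Col-0. RPN12A had 52.0 and 42.9 CPM in rpn12a-1, against 73.6 to 102 CPM in untreated Col-0. Summed root markers (PYK10, EXPA7 and COBL9) were 2880 to 5710 CPM in rpn10-1 and 8770 to 9140 CPM in rpn12a-1. In Col-0 they were 6460 to 8530 CPM untreated, 3640 to 4620 CPM at 3 h and 1510 to 3940 CPM at 24 h. PYK10 made up nearly all of this sum, and the markers did not shift alike. Means of PYK10, EXPA7 and COBL9 were 7770, 6.65 and 8.43 CPM in untreated Col-0 and 8940, 3.49 and 6.08 CPM in rpn12a-1. They were 4280, 6.35 and 6.62 CPM in rpn10-1, 4160, 6.58 and 4.27 CPM at 3 h, and 2560, 3.88 and 2.58 CPM at 24 h. Summed shoot markers (RBCS1A, LHCB2.1 and CA1) were 15400 to 24200 CPM in rpn10-1 and 16700 to 17600 CPM in rpn12a-1. In Col-0 they were 14700 to 23300 CPM untreated, 12200 to 21800 CPM at 3 h and 7990 to 12700 CPM at 24 h. RBCS1A made up most of this sum. Means of RBCS1A, LHCB2.1 and CA1 were 14000, 2000 and 1990 CPM in untreated Col-0 and 16700, 1250 and 1860 CPM in rpn10-1. They were 13300, 1760 and 2090 CPM in rpn12a-1, 14000, 1640 and 1260 CPM at 3 h, and 9130, 1070 and 769 CPM at 24 h. Summed seed markers (CRA1, SESA4 and OLEO1) were at most 4.37 CPM outside rpn10-1, where the libraries had 0.616 and 37.3 CPM. The part of these shifts in the results was not tested, and in whole seedlings fewer cells of a type and less RNA per cell cannot be told apart.

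HSP70 proteins bind exposed hydrophobic stretches of unfolded proteins in cycles of ATP hydrolysis, in which J-domain proteins deliver substrates and nucleotide exchange factors release them. HSP90 acts later, on near-native clients such as kinases and receptors, with co-chaperones that hand over clients or time its ATPase cycle. HSP101 is the plant cytosolic ClpB-type disaggregase, which threads proteins out of aggregates and is needed for acquired heat tolerance in Arabidopsis. Heat shock factors switch on such genes through heat shock elements, inverted repeats of the unit GAA and its complement TTC.

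To show which members carry such letters near their coding sequence, the 500 genomic bases before each start codon were searched in the TAIR10.1 assembly with the RefSeq annotation. The 2-unit element was GAANNTTC or TTCNNGAA, and the 3-unit element was GAANNTTCNNGAA or TTCNNGAANNTTC; every 3-unit element also holds 2-unit ones, and each pair of spellings covers both strands. The 3-unit element lay before 5 of the 10 genes (HSP90-1, HSP70-1, HSP70-2, HSP70-3 with 2 copies, and HSP70-4), against 1.2% of all 27443 protein-coding genes searched. HSP70-5 and HSP101 held 1 copy each of the 2-unit element, which 33.9% of all genes hold. HSP90-2, HSP90-3 and HSP90-4 held neither in this window. The window was chosen after a shorter one from the annotated gene starts had given no match. A match is a run of letters and not a shown binding site. All the printed HSP70 and HSP101 sites lie inside the annotated gene, between its start and the start codon, so they are not upstream of transcription by this annotation. The annotated gene begins 507 bases before the start codon in HSP101 and 450 in HSP90-2, so the window holds none or little of the sequence upstream of those genes, while for HSP90-1 the annotation gives no such stretch. The sites follow as 30 bases each, 5′ to 3′ on the gene's strand, with the GAA and TTC units in capitals.
HSP90-1: aacgaaaaGAActTTCtgGAAttcgtttgc
HSP70-1: caaccatcGAAcaTTCtcGAAacattttaa
HSP70-2: taattacaGAAcaTTCtgGAAactcaagtc
HSP70-3, far copy: atcgaaccGAAcaTTCtcGAAcctttttaa
HSP70-3, near copy: gagccatcGAAccTTCtcGAAactcgagta
HSP70-4: ttactcgtGAAcgTTCtcGAAagctctttg
HSP70-5: cacgaccttttTTCtcGAAatgtctcgttc
HSP101: ataaaataagcGAAaaTTCcacgtgacatc

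The HSP90-1 element began 295 bases before the start codon (chr5:21352254-21352283, plus strand). Those of the HSP70 genes began nearer, at 240 bases in HSP70-1 (chr5:556553-556582), 141 in HSP70-2 (chr5:552685-552714), 282 and 153 in HSP70-3 (chr3:2905893-2905922 and chr3:2905764-2905793), 177 in HSP70-4 (chr3:3993845-3993874) and 150 in HSP70-5 (chr1:5504458-5504487). The HSP101 match lay farthest out, at 478 bases (chr1:27940322-27940351); all the HSP70 sites and that of HSP101 are on the minus strand. The letters TGGGC, searched with GCCCA for both strands, stood before HSP90-2, HSP70-2, HSP70-3 and HSP70-5 and before 31% of all genes.

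HSP90-4 (22677338 to 22680152, minus strand), HSP90-3 (22681238 to 22684252) and HSP90-2 (22686473 to 22689671) sit side by side on chromosome 5 in TAIR10.1. Their coding sequences are 94.3% to 95.7% identical to each other and 79.2% to 79.9% identical to that of HSP90-1. Of all windows of 50 bases in their exons, 18.9% in HSP90-2, 24.8% in HSP90-3 and 19.5% in HSP90-4 occur elsewhere in the genome, so reads could be split between these 3 genes or dropped, and their separate values are uncertain to that extent. HSP90-1, HSP70-1, HSP70-2, HSP70-4 and HSP70-5 hold no such window. The next stretch shows the problem: 152 coding bases that HSP90-2 (from coding base 644), HSP90-3 and HSP90-4 (both from base 557) share without a difference.
HSP90-2, HSP90-3 and HSP90-4: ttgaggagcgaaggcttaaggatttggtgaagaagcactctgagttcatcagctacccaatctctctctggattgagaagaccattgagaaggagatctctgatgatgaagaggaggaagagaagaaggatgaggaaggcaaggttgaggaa

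HSP70-1 and HSP70-2 are also neighbours on chromosome 5 (553745 to 556623 and 550035 to 552827, both on the minus strand), with 87.2% identity of their coding sequences. HSP70-3 (chromosome 3, 2902355 to 2905947) overlaps AT3G09430 on the other strand and a small nucleolar RNA gene. HSP101 (chromosome 1, 27936508 to 27940369) overlaps AT1G74300 on the other strand. Because the kit used keeps no strand information, reads from the overlapping genes cannot be told apart. The RefSeq model of HSP90-1 (chromosome 5, 21352557 to 21355147) has no untranslated region, so its level per exon length may be too high beside the other genes.

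The members differed widely in level before any treatment. In untreated Col-0, on the scale of CPM per kilobase of exon, HSP70-1 stood at 767 ± 65.1 (SD, n = 4, as for the following levels). Then came HSP90-2 at 122 ± 6.83, HSP90-3 at 105 ± 6.68, HSP70-3 at 77.7 ± 3.81 and HSP70-4 at 20.0 ± 1.6 CPM per kilobase. HSP90-4 (14.6 ± 1.06) and HSP70-2 (14.3 ± 1.02) did not differ beyond their spread, nor did HSP90-1 (6.43 ± 2.43) and HSP101 (5.01 ± 0.836 CPM per kilobase). HSP70-5 was lowest at 1.88 ± 0.275 CPM per kilobase. The labels of form and the levels did not line up throughout: the inducible HSP70-4 was above the constitutive HSP90-4 and HSP70-2.

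After 3 h of MG132 all 10 genes rose, and the inducible forms HSP90-1, HSP70-4 and HSP101 rose most (edgeR's quasi-likelihood F-test, Benjamini-Hochberg adjusted p under 0.05 over 21205 genes). Of all genes tested, 8.68% rose, 9.24% fell and 17.9% changed in either direction. The median log2 fold change was 3.36 over the 4 inducible forms and 1.5 over the 6 constitutive forms, against -0.01 over all genes. Libraries at 3 h lay above all untreated ones for 9 of the 10 genes, a separation that 8.82% of all genes showed; 8.99% of all genes lay fully below, and no member did.

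HSP90-1, the heat-inducible HSP90, had 385, 267, 711 and 566 CPM at 3 h, against 11.4, 7.38, 18.6 and 16.7 CPM in untreated Col-0. Every treated library was far above every untreated one, and the log2 fold change was 5.14 ± 0.19 (approximate SE; adjusted p = 2.7e-10), or 35.3-fold. HSP70-4, the main stress-inducible cytosolic HSP70, had 623, 446, 1470 and 1080 CPM at 3 h, against 44.9, 49.6, 54.2 and 52.5 CPM untreated. Its libraries did not overlap, and the log2 fold change was 4.00 ± 0.24 (adjusted p = 3.2e-08). HSP101 had 87.9, 77.2, 152 and 137 CPM at 3 h, against 14.5, 14.3, 19.1 and 19.4 CPM untreated, with a log2 fold change of 2.71 ± 0.11 (adjusted p = 8.1e-10). The last inducible form was small in level and in response. HSP70-5 had 5.55, 9.80, 18.6 and 13.9 CPM at 3 h, against 5.21, 3.79, 4.99 and 5.33 CPM untreated, so that the lowest treated library barely cleared the highest untreated one (log2 fold change 1.23 ± 0.26, adjusted p = 0.0042).

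Among the constitutive HSP70 genes the fold changes ran in the opposite order to their levels. HSP70-2 had 146, 129, 288 and 220 CPM at 3 h, against 33.5, 33.9, 36.2 and 39.0 CPM untreated (log2 fold change 2.40 ± 0.26, adjusted p = 1.5e-05). HSP70-3 had 960, 741, 1600 and 1370 CPM at 3 h, against 262, 233, 253 and 253 CPM untreated (2.16 ± 0.16, adjusted p = 3.3e-07). HSP70-1, the most abundant cytosolic HSP70, had 2930, 2740, 5310 and 3490 CPM at 3 h, against 2060, 1710, 2030 and 2040 CPM untreated (0.85 ± 0.16, adjusted p = 0.0019). All 3 sets of libraries were apart from the untreated ones, so genes named constitutive also responded, and HSP70-2 and HSP70-3 by more than the inducible HSP70-5 in these estimates; that difference itself was not tested.

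The constitutive HSP90 genes rose less than HSP90-1. HSP90-2 had 1090, 801, 1420 and 1120 CPM at 3 h, against 379, 348, 332 and 349 CPM untreated (log2 fold change 1.63 ± 0.16, adjusted p = 3.6e-06). HSP90-3 had 734, 566, 880 and 698 CPM at 3 h, against 300, 264, 263 and 272 CPM untreated (1.37 ± 0.14, adjusted p = 1.1e-05). Both pairs of groups were apart. HSP90-4 had 58.4, 38.1, 69.7 and 60 CPM at 3 h, against 37.2, 33.5, 33.9 and 38.9 CPM untreated, and here 1 treated library fell among the untreated ones (0.64 ± 0.13, adjusted p = 0.0031).

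**Figure D1:**
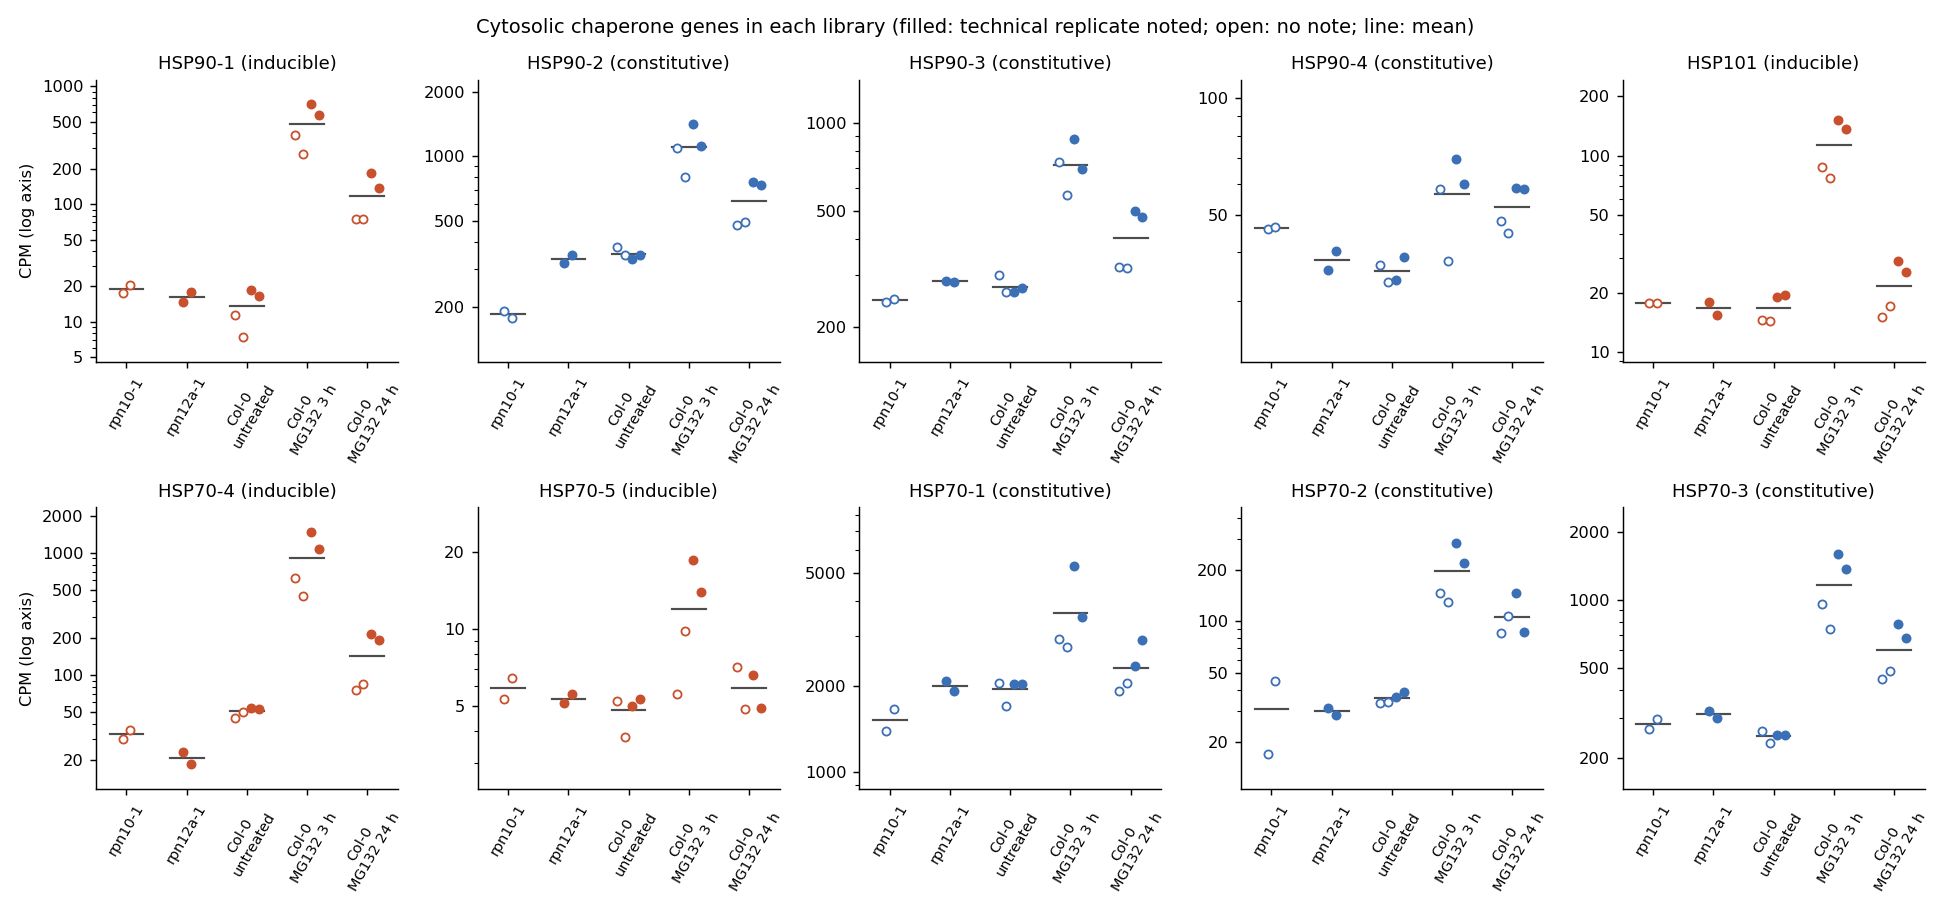
CPM of each gene (log axis, a separate range per panel) in every library of rpn10-1, rpn12a-1 and Col-0 untreated, at 3 h and at 24 h of MG132, with lines at group means. HSP90-1, HSP70-4 and HSP101 have the largest fold rises from untreated Col-0 at 3 h. At 3 h and 24 h the libraries with a technical replicate noted (filled) lie above those without (open) for HSP90-1, HSP70-4, HSP70-3 and HSP101.

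The 2 library sets responded to different extents. The set with the note responded more strongly at 3 h in HSP70-4 by 1.08 ± 0.27 on the log2 scale (approximate SE) and at 24 h by 1.19 ± 0.27, a difference that passed the test at 24 h (edgeR adjusted p = 0.04) and not at 3 h (adjusted p = 0.18). No other member passed at either time, where 0.0283% of all genes passed at 3 h and 2.52% at 24 h. In the libraries without the note alone, 7 of the 10 genes rose at 3 h. HSP90-4, HSP70-1 and HSP70-5 did not pass there, with log2 fold changes of 0.46, 0.59 and 0.71. The share of all genes that passed in that fit is not reported here. With all 16 libraries, 17.9% of all genes changed in either direction at 3 h.

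At 24 h of MG132, 8 of the 10 genes were still higher than in untreated Col-0, by smaller amounts, while 12.6% of all genes were higher, 13.8% were lower and 26.4% changed in either direction. The median log2 fold change was 0.84 over the inducible and 0.65 over the constitutive forms, against -0.03 over all genes. Libraries lay above all untreated ones for 7 of the 10 genes, as for 12.7% of all genes, and below them for none, against 13.4% of all genes. In the libraries without the note alone, 4 of the 10 were higher, while 26% of all genes changed in either direction. HSP90-2 (0.42), HSP90-3 (0.18), HSP90-4 (0.39) and HSP101 (0.17) did not pass there. Both times are set against the same untreated libraries.

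HSP90-1 had 74.5, 74.8, 183 and 137 CPM at 24 h, every value above the untreated range of 7.38 to 18.6 CPM (log2 fold change 3.08 ± 0.17, adjusted p = 9e-09). HSP70-2 had 85.4, 107, 147 and 86.9 CPM (1.57 ± 0.26, adjusted p = 0.00043), HSP70-3 had 448, 485, 784 and 681 CPM (1.21 ± 0.16, adjusted p = 6.3e-05), and both were apart from the untreated libraries given above. HSP70-4 had 75.9, 84.4, 217 and 195 CPM (1.33 ± 0.22, adjusted p = 0.00055), again with no overlap. HSP90-2 had 479, 495, 760 and 737 CPM (0.77 ± 0.15, adjusted p = 0.002), with smaller rises in HSP90-3 (0.52 ± 0.14, adjusted p = 0.015) and HSP90-4 (0.54 ± 0.13, adjusted p = 0.0072). Without untreated replicate 3 or 4 or 24 h replicate 3, HSP90-3 no longer passed (0.44 to 0.46).

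HSP101 rose least of the genes that passed at 24 h. It had 15.1 and 17.2 CPM in the libraries without the note, against 14.5 and 14.3 CPM in untreated Col-0, and 29.1 and 25.6 CPM in those with it, against 19.1 and 19.4 CPM. The groups overlapped when pooled but not within either library set, and the gene passed (log2 fold change 0.34 ± 0.11, adjusted p = 0.032); without 24 h replicate 2 or 3, or untreated replicate 3 or 4, it no longer passed (0.28 to 0.33). HSP70-1 and HSP70-5 did not pass at 24 h, with log2 fold changes of 0.22 ± 0.16 and 0.28 ± 0.26 (adjusted p = 0.34 and 0.47). HSP70-5 had 7.08, 4.89, 6.60 and 4.92 CPM, 2 libraries within its untreated range and 2 above it.

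**Figure D2:**
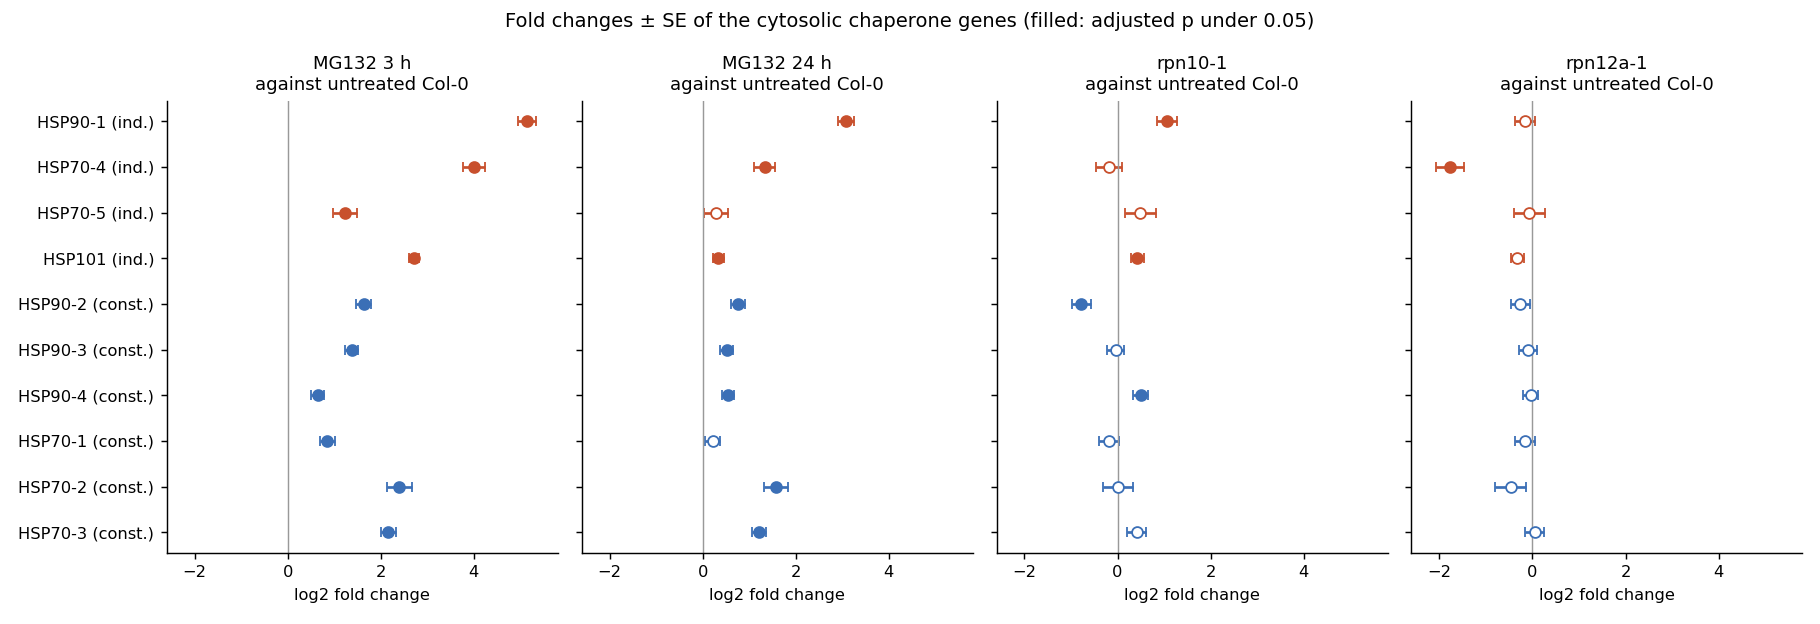
Log2 fold change with approximate SE of each gene at 3 h and 24 h of MG132 and in both mutants, each against untreated Col-0; filled points passed at an adjusted p under 0.05. All 10 genes lie above 0 at 3 h, HSP90-1 at 5.14, while at 24 h HSP101 is at 0.34, and in rpn12a-1 HSP70-4 alone passed, at -1.77.

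In the direct comparison of 24 h with 3 h, 9 of the 10 genes fell and none rose, whereas 7.76% of all genes fell, 8.27% rose and 16% changed in either direction. The fall was steepest in HSP70-4 (log2 fold change -2.67 ± 0.23, adjusted p = 3e-06), HSP101 (-2.37 ± 0.11, adjusted p = 3.4e-09) and HSP90-1 (-2.06 ± 0.16, adjusted p = 1.2e-06). The 6 constitutive forms ran from -0.95 in HSP70-3 to -0.10 in HSP90-4, and HSP90-4 was the gene that did not pass (adjusted p = 0.61). HSP90-2 and HSP90-3 both changed by -0.85, and HSP70-5, called inducible, by -0.95 ± 0.26 (adjusted p = 0.022). The libraries at 24 h lay below all those at 3 h for 5 of the 10 genes (HSP90-1, HSP90-2, HSP90-3, HSP70-4 and HSP101), as for 8.13% of all genes, and above them for none, against 7.77% of all genes. HSP70-1, HSP70-2 and HSP70-5 each lost the call without some single libraries: HSP70-1 without 3 h replicate 3 or without 24 h replicate 1 or 3 (-0.60 to -0.42), HSP70-2 without 3 h replicate 1, 3 or 4 or 24 h replicate 1 or 4 (-0.89 to -0.63), and HSP70-5 without 3 h replicate 2 or 3 or 24 h replicate 2, 3 or 4 (-0.93 to -0.70).

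The makeup of each family shifted with these changes. Per exon length, HSP90-1 made up 2.60 ± 1.03% of the summed cytosolic HSP90 level in untreated Col-0, 24.4 ± 4.49% at 3 h and 12.1 ± 2.40% at 24 h (SD, n = 4 each). Without division by length the shares were 2.01 ± 0.801%, 19.8 ± 3.84% and 9.50 ± 1.95%. The log2 ratio of HSP90-1 to the other 3 HSP90 genes was 3.67 higher at 3 h than untreated and 2.43 higher at 24 h than untreated, and 1.24 lower at 24 h than at 3 h on average (-1.24 for 24 h minus 3 h). In each of these comparisons the libraries were fully apart, which gives the smallest two-sided p an exact permutation test of 4 against 4 allows, 0.029. Adjusted over the 15 ratio tests made it was 0.054, above 0.05. All these ratio tests took no account of the library set. Against untreated Col-0, the 3 h difference was 3.87 in the libraries without the note and 3.47 in those with it. The 24 h difference was 2.70 and 2.16.

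Within cytosolic HSP70, HSP70-4 and HSP70-5 together made up 2.50 ± 0.241% in untreated Col-0, 15.7 ± 3.25% at 3 h and 4.75 ± 1.62% at 24 h (SD, n = 4 each). The log2 ratio to HSP70-1, HSP70-2 and HSP70-3 was 2.84 higher at 3 h than untreated and 0.91 higher at 24 h than untreated, with the libraries fully apart (exact permutation p = 0.029, adjusted 0.054, for each). The 24 h difference was 0.51 in the libraries without the note and 1.30 in those with it. HSP70-4 carried this shift: HSP70-5 held 0.213 ± 0.0159% untreated, 0.207 ± 0.0568% at 3 h and 0.199 ± 0.0655% at 24 h. HSP70-1, the main form, made up 87.0 ± 0.581% untreated, 64.4 ± 4.48% at 3 h and 76.1 ± 3.91% at 24 h, while HSP70-3 held 8.84 ± 0.336%, 16.4 ± 1.62% and 15.5 ± 2.02% at the same times. The summed cytosolic HSP70 level was 881 ± 69.5 CPM per kilobase untreated, 2220 ± 779 at 3 h and 1190 ± 238 at 24 h, and the summed HSP90 level was 249 ± 13.3, 913 ± 231 and 446 ± 117 CPM per kilobase.

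HSP101 has no constitutive cytosolic counterpart among the members, so it was set against the organelle forms of the same ClpB type, plastid CLPB3 and mitochondrial CLPB4. Its share of the 3 was 12.6 ± 2.47% untreated, 42.4 ± 2.52% at 3 h and 12.6 ± 4.26% at 24 h (SD, n = 4 each). The log2 ratio was 2.37 higher at 3 h than untreated (exact permutation p = 0.029, adjusted 0.054) and differed by -0.05 at 24 h (exact permutation p = 0.91), where the libraries overlapped. CLPB4 itself rose at 3 h by a log2 fold change of 1.66 (edgeR adjusted p = 3.7e-07).

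**Figure D3:**
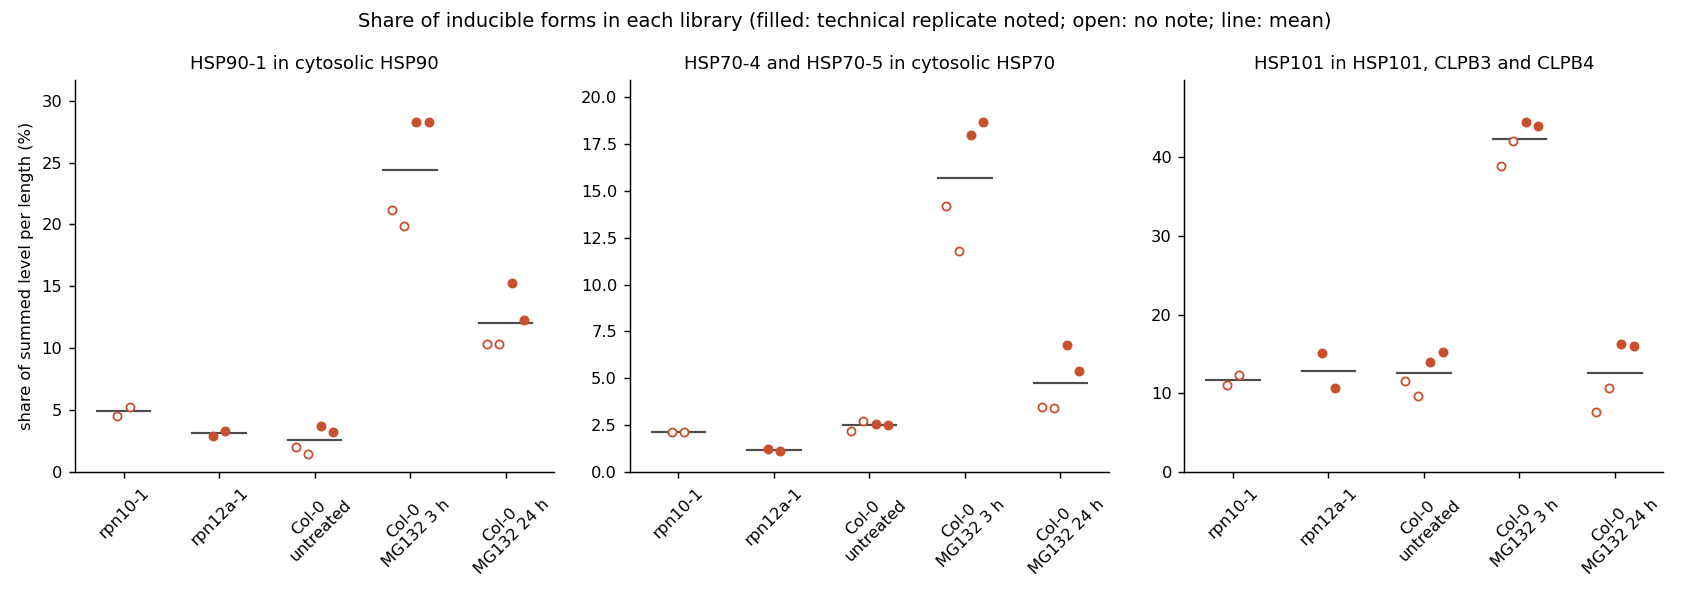
Share in percent of the inducible forms in the summed level per exon length, in each library (points) with group means (lines). At 3 h HSP90-1 is between 19.9% and 28.3% of cytosolic HSP90, HSP70-4 with HSP70-5 between 11.8% and 18.7% of cytosolic HSP70, and HSP101 between 38.9% and 44.5% of HSP101, CLPB3 and CLPB4; at 24 h the HSP101 share overlaps the untreated range.

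In rpn10-1 the HSP90 genes moved in different directions, and no HSP70 gene passed the test. HSP90-1 was higher and HSP90-2 lower than in untreated Col-0 of the same library set. HSP90-1 had 17.6 and 20.6 CPM in rpn10-1, against 11.4 and 7.38 CPM in the untreated libraries without the note and 18.6 and 16.7 CPM in those with it. HSP90-2 had 192 and 178 CPM in rpn10-1, below all untreated libraries (332 to 379 CPM). In the fit across all libraries, HSP90-1 (log2 fold change 1.06 ± 0.21, adjusted p = 0.0027), HSP90-4 (0.50 ± 0.16, adjusted p = 0.04) and HSP101 (0.42 ± 0.14, adjusted p = 0.041) were higher and HSP90-2 was lower (-0.78 ± 0.20, adjusted p = 0.012). HSP101 had 17.7 and 17.8 CPM in rpn10-1, inside the 14.3 to 19.4 CPM of untreated Col-0, and its log2 fold change with no term for the set was 0.07. That is 4 of 10, against 23% of all genes changed, 11.4% higher and 11.5% lower. The rpn10-1 libraries lay above all untreated ones for HSP90-4, HSP70-3 and HSP70-5 (19.4% of all genes did) and below them for HSP90-2, HSP90-3, HSP70-1 and HSP70-4 (18.8% of all genes did).

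How the library sets are handled bears on the mutants, because rpn10-1 lies wholly in the set without the note and rpn12a-1 wholly in the set with it. With the set difference taken from untreated Col-0 alone (a fit added after the data were seen), HSP90-1 (1.00 ± 0.24, adjusted p = 0.0075) and HSP90-2 (-0.98 ± 0.16, adjusted p = 0.00083) passed in rpn10-1. HSP90-4 (0.39, adjusted p = 0.093) and HSP101 (0.30, adjusted p = 0.11) did not. That is 2 of 10, while 32.7% of all genes passed in this fit. With no term for the set, HSP90-1 did not pass (0.49). Leaving out rpn10-1 replicate 1 or 2 ended the HSP90-2 call (-0.84 to -0.73), in fits where the lone rpn10-1 library was assumed to vary like the other groups. HSP90-4 (0.45 to 0.54) and HSP101 (0.39 to 0.43) lost the call without either rpn10-1 library or without untreated replicate 3 or 4, and HSP90-4 also without untreated replicate 2. The share of HSP90-2 in cytosolic HSP90 was 33.3% and 35.7% in rpn10-1, against 48.3% to 50.6% in untreated Col-0, and that of HSP90-1 was 4.48% and 5.26%, against 1.47% to 3.70%. The log2 ratio of HSP90-1 to the other 3 genes was 1.03 higher in rpn10-1 (exact permutation p = 0.13, adjusted 0.20; 2 libraries against 4 cannot go below 0.067).

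The remaining genes of rpn10-1 did not pass. HSP70-4 had 29.8 and 35.6 CPM in rpn10-1, below the 44.9 to 54.2 CPM of untreated Col-0, with a log2 fold change of -0.19 ± 0.28 (adjusted p = 0.65) and of -0.53 ± 0.20 (adjusted p = 0.054) with the set difference from untreated Col-0. HSP70-2 had 16.9 and 45.2 CPM, on either side of the untreated libraries. The 2 rpn10-1 libraries differed from each other more than any other replicate pair (chi-square per degree of freedom 69.7, against 7.77 to 59.7). Replicate 1 of rpn10-1 had counts in 27992 genes, against 22897 in replicate 2 and 22120 to 24001 in the other libraries, and the part of this in the rpn10-1 results was not tested.

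In rpn12a-1 HSP70-4 was lower, and none of the other 9 genes passed the test. HSP70-4 had 23.4 and 18.6 CPM in rpn12a-1, against 44.9, 49.6, 54.2 and 52.5 CPM in untreated Col-0, so both lay below every untreated library. The log2 fold change was -1.77 ± 0.31 (adjusted p = 0.0023), and -1.35 ± 0.20 (adjusted p = 0.00081) with the set difference from untreated Col-0; the means were 21.0 ± 3.37 CPM in rpn12a-1 and 50.3 ± 4.04 CPM in untreated Col-0 (SD). Of all genes, 2.26% were lower in rpn12a-1, 2.64% were higher and 4.9% changed in either direction. The rpn12a-1 libraries lay below all untreated ones for HSP70-2 and HSP70-4 (16.4% of all genes did) and above them for HSP70-3 (16.9% of all genes did). Without rpn12a-1 replicate 2 the call was lost (-1.6), as it was with no term for the set (-1.26, adjusted p = 0.18). HSP70-4 and HSP70-5 made up 1.2% and 1.10% of cytosolic HSP70 in rpn12a-1, against 2.16% to 2.73% in untreated Col-0, and the log2 ratio was 1.13 lower on average (-1.13; exact permutation p = 0.067, the smallest possible here, adjusted 0.11).

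HSP101 did not pass in rpn12a-1 (17.9 and 15.4 CPM; -0.33 ± 0.14, adjusted p = 0.23), nor did HSP90-1 (14.8 and 17.8 CPM; -0.16 ± 0.21, adjusted p = 0.78). The 6 constitutive forms had log2 fold changes of -0.47 to 0.05, with a median of -0.13, against -0.01 over all genes. For HSP90-1, the highest value of a mutant library was 20.6 CPM, against 74.5 CPM in the lowest MG132 library; for HSP101 and HSP70-5 the mutant libraries lay within the range of those at 24 h.

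Between the mutants, HSP90-1 (-1.22 ± 0.26, adjusted p = 0.014), HSP70-4 (-1.58 ± 0.36, adjusted p = 0.019) and HSP101 (-0.76 ± 0.18, adjusted p = 0.021) were lower in rpn12a-1 than in rpn10-1, 3 of 10, against 2.46% of all genes lower, 3.85% higher and 6.31% changed. The libraries of rpn12a-1 lay above those of rpn10-1 for 4 of the 10 genes (27.2% of all genes did) and below for HSP90-4 and HSP70-4 (28.2% of all genes did), so HSP90-1 and HSP101 overlapped. With 1 mutant library left out, the other groups supply the spread for the lone library. HSP70-4 then lost the call without either rpn12a-1 library (-1.75 to -1.42), HSP90-1 without rpn12a-1 replicate 1 (-1.09), and HSP101 without rpn12a-1 replicate 2 or rpn10-1 replicate 1 (-0.76 to -0.65). These log2 fold changes depend on the term for the library set, since each mutant lies in a different set. With the set difference from untreated Col-0, HSP90-1 was lower (-1.11, adjusted p = 0.041) and HSP90-2 higher (0.94, adjusted p = 0.019) in rpn12a-1, where 15% of all genes passed. HSP70-4 (-0.82, adjusted p = 0.064) and HSP101 (-0.51, adjusted p = 0.081) did not pass in that fit. With no set term no member passed, while 3.69% of all genes did. The differences were then -0.23 in HSP90-1, -0.64 in HSP70-4 and -0.09 in HSP101.

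The partners of these chaperones were counted from lists grouped by function. The lists were chosen with earlier results of these data known, so the counts are not independent of the data. Of all genes, 8.68% rose and 9.24% fell at 3 h, and 12.6% rose and 13.8% fell at 24 h. Of 13 HSP90 co-chaperone genes, 8 rose at 3 h and none fell (median log2 fold change 0.38), and 8 rose at 24 h (median 0.54). ROF2, a heat-inducible FKBP-type co-chaperone, had 98.9 ± 36.7 CPM at 3 h, against 8.39 ± 3.42 CPM untreated (SD, n = 4 each; log2 fold change 3.59, adjusted p = 7.9e-10), and did not pass at 24 h (9.13 ± 4.70 CPM; 0.08, adjusted p = 0.71). HOP3, which bridges HSP70 and HSP90, had 85.3 ± 33.6 CPM at 3 h, against 10.5 ± 3.08 CPM untreated (2.99, adjusted p = 1.6e-08). SGT1A, a co-chaperone known from plant immunity, rose equally at both times (1.13 each, adjusted p = 3e-06 at 3 h and 2.3e-06 at 24 h).

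Of 8 J-domain genes that can serve cytosolic HSP70, 4 rose at 3 h (median 0.66), the same count as at 24 h (median 0.24). AT2G20560 had 28.9 ± 10.3 CPM at 3 h, against 5.04 ± 2.00 CPM untreated (2.51, adjusted p = 1.5e-07), and ATJ3, a farnesylated J-protein, rose by 1.00 (adjusted p = 2.5e-05). Of 10 exchange factor and BAG genes, 2 rose and 2 fell at 3 h (median -0.05). FES1A, the exchange factor of cytosolic HSP70 known from heat stress, had 113 ± 23.3 CPM at 3 h, against 14.1 ± 1.70 CPM untreated (2.99, adjusted p = 5.1e-09); BAG6 rose by 1.24 (adjusted p = 0.012), and BAG1 and BAG2 fell by 0.61 and 0.87 (-0.61 and -0.87; adjusted p = 0.0019 and 0.003). The HSP110-type and divergent HSP70 genes rose in 3 of the 4 cases tested (median 0.85), by 1.37 in AT2G32120.

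Of 12 genes for organelle and endoplasmic reticulum forms of HSP70, HSP90 and ClpB, 4 rose at 3 h (median 0.05) and 8 at 24 h (median 0.65). At 24 h against 3 h, 3 were higher, 8 did not pass, and CLPB4 was lower (-0.82, adjusted p = 0.00051), as 9 of the 10 cytosolic genes were. The 4 at 3 h were mitochondrial forms: CLPB4, the HSP70 genes mtHSC70-1 (0.99) and mtHSC70-2 (0.78), and HSP90-6 (0.64). The endoplasmic reticulum chaperones BIP1, BIP2 and HSP90-7 did not pass at 3 h (0.17, 0.00 and -0.21) and were higher at 24 h than at 3 h by 0.91, 0.99 and 1.02 (adjusted p = 0.0019, 0.0014 and 0.0033). Among 12 tested genes for heat shock factors, their binding protein HSBP and the HSP101 partner HSA32, 3 rose and 1 fell at 3 h (median 0.26). HSFA2, HSA32 and HSFB2B rose by 4.84, 1.36 and 0.71, and HSFA7A fell (-0.63). HSFB1, also among the 13 genes listed, had 0 CPM in every library and was not tested, so these counts cannot show its response. In rpn10-1, 4 co-chaperone genes were higher and 1 lower, where 11.4% of all genes were higher and 11.5% lower. In rpn12a-1, 1 was higher (SGT1A, 0.53) and 1 lower (ROF2, -0.86), where 2.64% of all genes were higher and 2.26% lower.

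**Figure D4:**
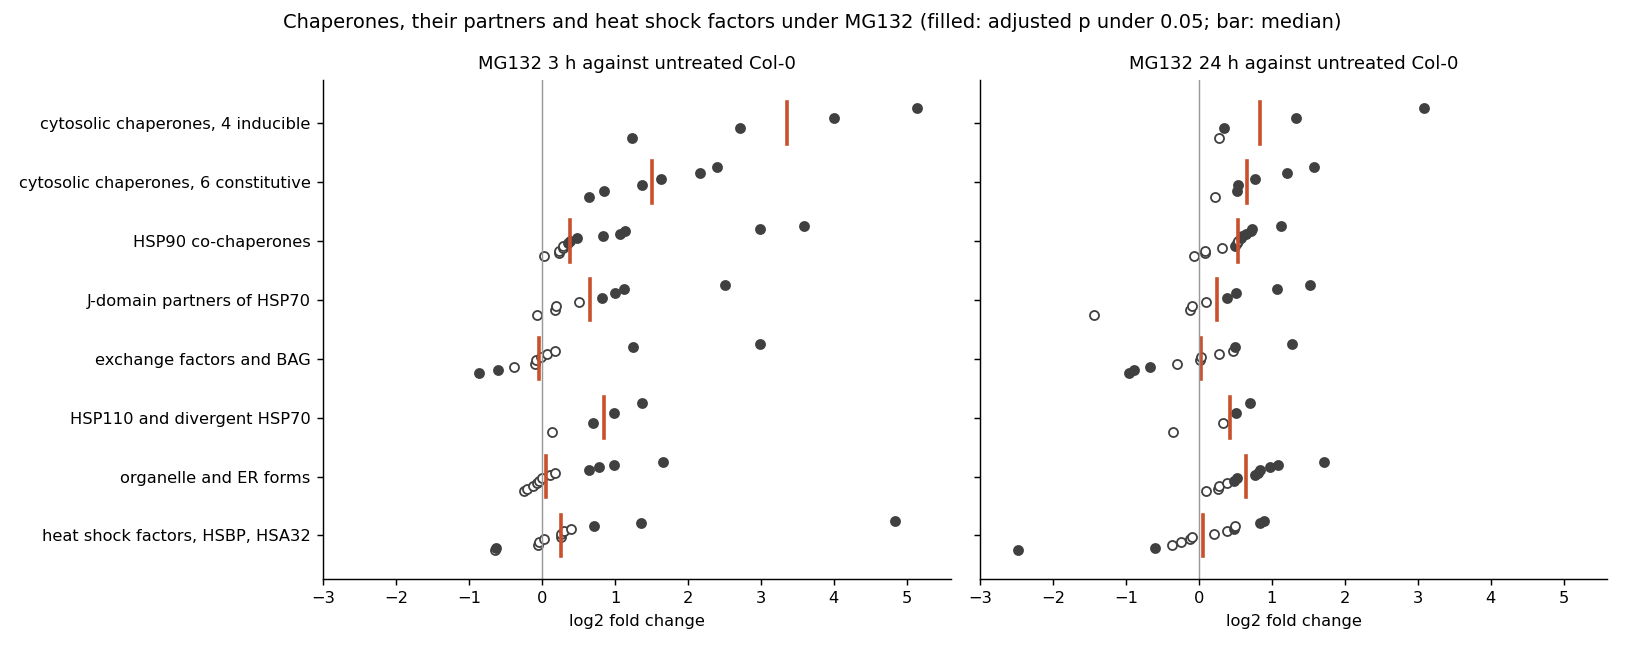
Log2 fold changes of each tested gene (points, filled at an adjusted p under 0.05) and list medians (bars) at 3 h and 24 h of MG132 against untreated Col-0. The inducible and constitutive cytosolic forms have medians of 3.36 and 1.5 at 3 h, while the organelle and endoplasmic reticulum forms have medians of 0.05 at 3 h and 0.65 at 24 h.

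Genes outside the family with the most similar profile were found by the root mean square difference of centred group means on the log2 scale over the 5 groups, among 16739 genes. For HSP101 the nearest were MBF1C, a transcriptional coactivator known from heat stress (difference 0.21), and HOP3 (0.218). HSP90-1 lay nearest to AT1G71000 (0.356) and the glutathione transferase gene GSTU25 (0.364), and HSP70-4 to AT1G05675 (0.219). HSP70-1 lay nearest to VDAC3, a mitochondrial outer membrane channel gene (0.051), HSP70-3 to the phosphoglycerate mutase gene iPGAM2 (0.06) and HSP90-3 to the ribosome biogenesis gene eIF6A (0.047). HSP90-4, with the flattest profile of the HSP90 genes, lay nearest to COX17 (0.03).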

How the data were processed

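RNA was sequenced from whole seedlings in 16 libraries. Each deposited file gives unnormalized read counts for every gene. The submitters' processing notes name TAIR10 as the build and edgeR, HTSeq, Bowtie2, TopHat and Trimmomatic as tools. Tool versions, strand mode and the handling of multiply mapped reads were not given in the sources used here. All rows name a gene. Total counts ran from 6646134 to 21762565.

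The 10 genes and all gene lists were chosen with earlier results of these data known. Genes were kept by filterByExpr (21205 of 33602) and tested with edgeR 4.0.16 in R 4.3.3 (TMM, group and library set as terms, all 16 libraries, quasi-likelihood F-test, two-sided, Benjamini-Hochberg adjusted p under 0.05 over all genes). SEs were taken as |log2 fold change| over √F and are approximate. Ratios used counts plus 0.5 per kilobase of exon and exact permutation tests over libraries, with no term for the library set. No replicate pair agreed within counting noise, so each library was counted once; this does not show that libraries are separate cultures. Named genes are all 10 members, the mutated genes, up to 4 called genes of each list with the smallest p in a comparison, and the 3 nearest profiles per member among genes of at least 5 CPM. Genes named with values to complete a list outside that rule (HSP90-7, BIP1 and BIP2 at 3 h, CLPB3 and CLPB4 at 24 h, HSFB2B, HSFA7A, HSFB1) were chosen after their values were seen. Alternatives were DESeq2 1.42.0, its size factors, no filter, no set term, the replicate number as a block, each library set alone, leaving out each library, and the set by MG132 terms added later. Names, lengths and sequences come from the RefSeq annotation of TAIR10.1, where 32835 identifiers were found; the authors' TAIR10 annotation may differ in gene models.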

Additional observations from a re-analysis of the deposited data

Results flagged for a closer look

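In untreated Col-0, HSP70-1 in replicate 2 (1710 CPM) stood apart from the other 3 libraries (2030 to 2060 CPM). It was the single such library among 39 sets of 4 libraries examined, of which chance gives about 5%.

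The responses to 3 h and 24 h of MG132 differed by the direct test of 24 h against 3 h (edgeR adjusted p under 0.05) in 9 genes. The log2 differences were -2.06 in HSP90-1, -0.85 in HSP90-2 and in HSP90-3, -0.63 in HSP70-1, -0.83 in HSP70-2, -0.95 in HSP70-3, -2.67 in HSP70-4, -0.95 in HSP70-5 and -2.37 in HSP101. The mutants differed by the test of rpn12a-1 against rpn10-1 in HSP90-1 (-1.22), HSP70-4 (-1.58) and HSP101 (-0.76), a comparison across library sets. Of all genes, 6.31% differed by this test. The mutant libraries overlapped for HSP90-1 and HSP101. With no set term no member passed, while 3.69% of all genes did.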

How the results depend on the processing

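At 3 h of MG132, 7 to 10 of the 10 genes rose under all alternatives, 10 of 10 whenever 1 library was left out. At 24 h against untreated Col-0, 4 genes passed in the libraries without the note alone, where 26% of all genes passed. When 1 library was left out, 6 to 8 passed, and 6 to 8 also at 24 h against 3 h. With all 16 libraries, 17.9% of all genes changed at 3 h, 26.4% at 24 h and 16% at 24 h against 3 h. The shares of all genes in the fits with 1 library left out, and in the other alternatives at 3 h, are not reported here. The mutant calls were the least stable. In rpn10-1, 1 gene passed with no set term (12.9% of all genes did), and 2 with the replicate block (19.5% did). In the libraries without the note alone 2 passed (25.5% did), and 2 with the set by MG132 terms, chosen after seeing the data (32.7% did). Without untreated replicate 3 or 4, 2 passed (19.6% and 22.5% of all genes did). Each of these counts of the 10 is near or below the share of all genes. Log2 fold changes without 1 mutant library are given above. In rpn12a-1, 0 passed with no set term (4.21% of all genes did). Against rpn10-1, 0 passed with no set term (3.69% of all genes did) and 0 with the replicate block (4.33% did). Beside each of these counts of 0 by edgeR, 1 gene had an unadjusted p under 0.05 (HSP70-4 against untreated Col-0, HSP90-2 against rpn10-1), and DESeq2 with the set term called 1 and 3. The cause of these changes was not tested.

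HSP90-1 in rpn12a-1 had a log2 fold change of 0.84 with the replicate block, which has no term for the set, against -0.16; under that block it was the 1 gene called in rpn12a-1, and HSP70-4 (-0.84) was not. Replicate numbers gave no sign of pairing the samples, though these correlations cannot exclude it. Same-numbered libraries had correlations of -0.181 to 0.496 (median 0.182), and 7 of 12 pairs exceeded 0.1. Differently numbered libraries of the same set had -0.108 to 0.446 (median 0.181), and 7 of 12 pairs exceeded 0.1. Under alternatives other than leaving out a library, 404 single-gene values stayed on their side of the threshold (those not called could change sign), 34 lost the call, and 2 gained one: HSP90-1 in rpn12a-1 above, with its sign reversed, and HSP90-2 between the mutants with the set by MG132 terms (0.94).

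The log2 ratio of HSP70-4 and HSP70-5 at 24 h against untreated Col-0 was 0.71 to 1.05 when 1 library was left out; without any 1 untreated library (0.84 to 0.95) its exact permutation p was 0.086. The unadjusted p of the other MG132 ratios stayed on its side of 0.05. Genes with few counts, such as HSP70-5 with 37 to 150 reads, limit what these libraries can show.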
